A study of Mus musculus with 2 samples.

Results

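EP300 binding was examined at 10 genes that move calcium in and out of the sarcoplasmic reticulum of heart muscle: Ryr2, Trdn, Casq2, Jph2, Atp2a2, Pln, Sln, Cacna1c, Cacnb2 and Slc8a1. A peak of the optimal list was assigned to a gene when the nearest transcription start site (TSS) of any protein-coding transcript belonged to that gene and lay within 100 kb of the peak's summit. By this rule 60 of the 17339 peaks on the main chromosomes were assigned, and 9 of the 10 genes held at least 1. The rule is one of distance and not a measured link between a peak and a gene. The data are chromatin immunoprecipitation and sequencing (ChIP-seq) with an antibody to EP300, a histone acetyltransferase recruited to enhancers and promoters, in whole heart tissue of B6NCrl mice at postnatal day 0. There are 2 libraries, replicates 1 and 2 of 1 group, with no other age, tissue, genotype or treatment, and the labels give both the same biosample and donor, so the spread between them may be technical. Because nothing was set against another condition, no test of a difference was made, and the values of the 10 genes are set beside those of all peaks or all genes as a description.

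In a heart muscle cell, calcium that enters through the L-type channel of the surface membrane opens the ryanodine receptor of the sarcoplasmic reticulum, and the calcium released from this store starts contraction. Relaxation follows when the SERCA pump returns calcium to the store, under the brake of phospholamban and sarcolipin, and when the sodium-calcium exchanger carries the rest out of the cell. These membranes and their junctions are still being built around birth in the mouse.

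The optimal list keeps the peaks of the pooled reads that pass an irreproducible discovery rate filter. Each peak carries the authors' signal value, whose formula is not stated; values were used to rank peaks within a list, with rank 1 the highest. Replicate 1, replicate 2 and the pooled reads each have a list of 300000 peaks, most of them weak: a deposited −log10 q of at least 2 was reached by 11104 peaks of replicate 1 and 3376 peaks of replicate 2. A peak was therefore counted as found in a replicate only when a summit lay within 100 bp among the 17372 leading peaks of that replicate's list, as many as the optimal list holds. The files give no read counts, and the sequencing depth of either library is unknown. As a check of the tissue label, with 31.8% of all protein-coding genes holding an assigned peak, 11 of 12 heart muscle markers had an assigned peak (116 peaks, 27 of them at Myh6), as had 8 of 8 endothelial markers (39 peaks, 10 at Kdr), 4 of 8 fibroblast markers (4 peaks, 1 at Postn), 3 of 10 skeletal muscle markers (6 peaks, 3 at Myog), 2 of 8 liver markers (2 peaks, 1 at G6pc) and 1 of 8 neuronal markers (2 peaks at Rbfox3). The share for skeletal muscle markers was close to that of all genes, and those for liver and neuronal markers were below it. In whole tissue the cell type that holds a peak cannot be told, nor can many cells with weak binding be told from few cells with strong binding.

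Most of the calcium handling genes held several peaks. Of the 10 genes, 9 had an assigned peak, against 31.8% of all 21864 protein-coding genes. At least 4 peaks were assigned to 8 of the 10, against 4.93% of all genes, and at least 8 peaks to 4 of the 10, against 0.933%. The mean was 6 peaks per gene, against 0.712 over all genes. Part of a count depends on how much DNA lies nearest to a gene, and per 100 kb of that territory the 10 genes held 2.63 peaks, against 0.971 for all genes. This density was uneven: Jph2 had 20.7, Atp2a2 9.85 and Pln 8.48, and the others ran from 0 at Sln to 2.08 at Cacnb2. The median over the 10 genes was 1.77. Over all genes it was 0 by construction, because most of them hold no peak. Jph2 and Cacnb2 had 10 peaks each, Pln 9, Atp2a2 8, Ryr2 7, Cacna1c 6, Slc8a1 5, Trdn 4, Casq2 1 and Sln 0. Neighbouring calls overlap, and joining summits closer than the usual width of a pooled call left 44 sites, of which 16 held more than 1 call. Jph2, Pln and Cacnb2 then had 7 sites each, Ryr2 6, Atp2a2 5, Cacna1c and Trdn 4 each, Slc8a1 3 and Casq2 1. The densities per 100 kb count overlapping calls and not these sites, so they would be lower and could order differently by site. When TSSs of every annotated transcript were used, noncoding ones included, 36 peaks stayed with the 10 genes, and Atp2a2 and Casq2 then had 0. When a deposited −log10 q of at least 2 was required, 37 peaks remained.

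**Figure D1:**
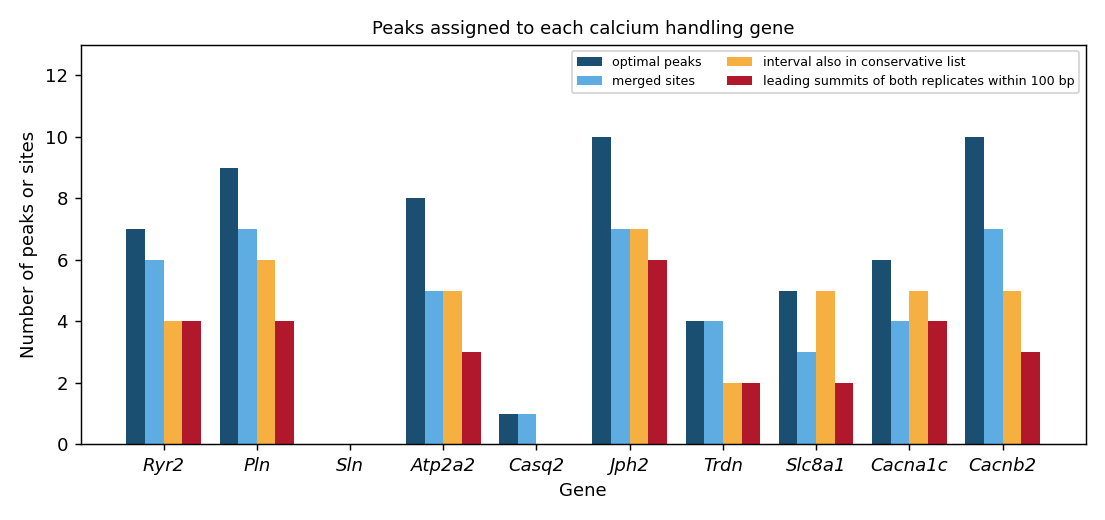
Number of assigned optimal peaks (dark blue), of sites after joining neighbouring summits (light blue), of peaks whose interval also stands in the conservative list (orange) and of peaks with a leading summit of both replicates within 100 bp (red) for each of the 10 genes. Jph2 and Cacnb2 have 10 peaks each and Sln has 0, and 6 of the 10 Jph2 peaks but 3 of the 10 Cacnb2 peaks were found in both replicates.

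In strength the peaks ran from a signal value of 7.87 to 207, with a median of 33.5 for the 60 peaks, against 30.6 for all optimal peaks. With 1 value per joined site the medians were 43.9 for the 44 sites and 33.9 for all 14054 sites. Ranks of 1000 or better were held by 10 of the 60 peaks, or 16.7% (95% exact interval 8.29% to 28.5%, counting error only), against 5.77% of all peaks. These 10 peaks lie at 7 genes: Ryr2 and Cacna1c hold several, and Pln, Atp2a2, Trdn, Slc8a1 and Cacnb2 have 1 each. The highest of all belonged to Ryr2 and Pln, at ranks 26 and 92.

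**Figure D2:**
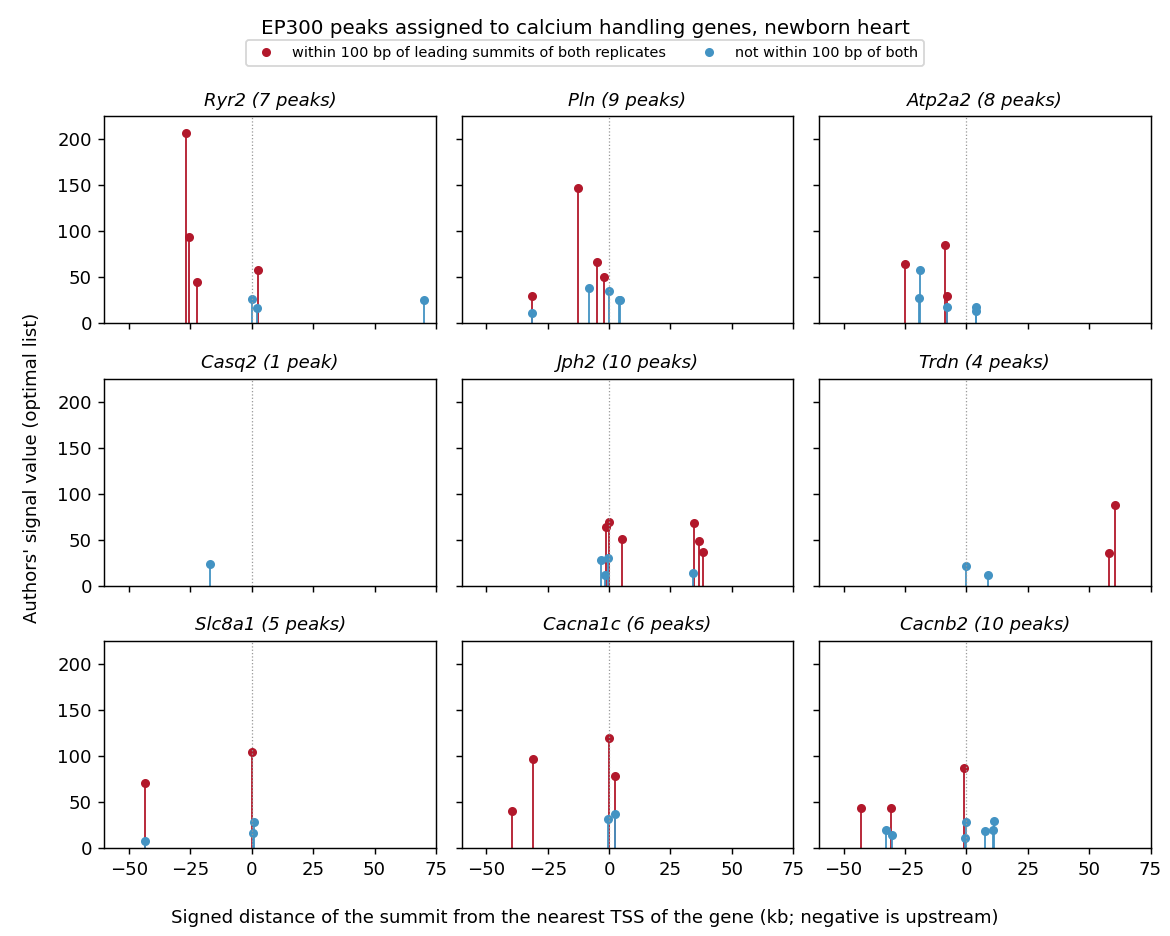
Signal value in the optimal list (vertical axis) of each assigned peak against the signed distance of its summit from the nearest TSS of the gene in kb (horizontal axis, negative is upstream), 1 panel for each of the 9 genes with a peak. Red points have a leading summit of both replicates within 100 bp, blue points do not; the strongest Ryr2 and Pln peaks stand upstream, while those of Jph2, Slc8a1 and Cacna1c stand at the promoter.

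The genes of the release unit come first. Ryr2 encodes the cardiac ryanodine receptor, the release channel itself; triadin (Trdn) anchors the calcium-storing protein calsequestrin (Casq2) to it, and junctophilin (Jph2) holds the store's membrane close to the surface membrane. The 200 bases at the summit of each gene's strongest peak are given here because the values and motif matches below refer to them. They are the plus strand of mm10 (GRCm38.p6, from RefSeq), written 5′ to 3′, with every match to 1 of the 15 motifs searched in capitals.
Ryr2 chr13:12133591-12133790: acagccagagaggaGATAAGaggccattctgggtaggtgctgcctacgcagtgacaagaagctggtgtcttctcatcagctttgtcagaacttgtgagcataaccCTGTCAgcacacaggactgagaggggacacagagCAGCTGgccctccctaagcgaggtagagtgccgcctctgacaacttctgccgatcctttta
Trdn chr10:33256351-33256550: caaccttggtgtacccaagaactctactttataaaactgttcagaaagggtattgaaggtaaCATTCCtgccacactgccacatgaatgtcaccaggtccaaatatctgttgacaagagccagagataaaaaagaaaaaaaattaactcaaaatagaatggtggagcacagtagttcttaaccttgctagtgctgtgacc
Casq2 chr3:102069495-102069694: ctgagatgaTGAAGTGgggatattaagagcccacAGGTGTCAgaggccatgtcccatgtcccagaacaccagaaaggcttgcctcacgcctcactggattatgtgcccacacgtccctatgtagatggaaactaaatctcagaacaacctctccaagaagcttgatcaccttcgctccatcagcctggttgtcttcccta
Jph2 chr2:163398009-163398208: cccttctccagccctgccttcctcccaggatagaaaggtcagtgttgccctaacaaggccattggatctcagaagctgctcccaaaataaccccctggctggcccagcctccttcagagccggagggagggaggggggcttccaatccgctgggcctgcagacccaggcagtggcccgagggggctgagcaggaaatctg

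Ryr2 had the strongest peak of the 10 genes, in intergenic DNA upstream of the gene. The peak, on chromosome 13 from 12133557 to 12133828, had its summit 26746 bp upstream of the TSS. Its signal value was 207 in the optimal list, 130 in the list of replicate 1, where it ranked 15, and 77.9 in that of replicate 2, where it ranked 57. It was high in both libraries. The capitals in its window mark a GATA match, a MEIS match and an E-box.

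Next to it stood a peak 25387 bp upstream with a signal value of 94.0 (rank 472), which had 52.4 in replicate 1 and 41.3 in replicate 2. Another peak of this upstream group, 22389 bp from the TSS, had 44.5, with 25.4 in replicate 1 and 20.9 in replicate 2. All of these were found in both replicates. Inside the gene, intron 1 held a peak of 57.6 at 2445 bp downstream of the TSS, also found in both, a neighbouring call of 16.6, and a peak of 25.5 at 69999 bp downstream. The peak at the Ryr2 promoter itself, 34 bp upstream of the TSS, was weaker than the upstream group, at 25.8. It had 20.8 in replicate 1 and 7.04 in replicate 2, where it ranked 54499. The promoter peak was therefore found among the leading peaks of replicate 1 and not among those of replicate 2. Counted in single libraries, Ryr2 had 11 peaks in replicate 1 and 12 in replicate 2, more than its 7 in the optimal list.

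Trdn had 4 peaks, and the strong ones lay deep inside the gene. The strongest, with a signal value of 87.4 (rank 628), lay in intron 10 on chromosome 10 from 33256203 to 33256698, its summit 60483 bp downstream of the nearest Trdn TSS. It had 47.1 in replicate 1 and 40.1 in replicate 2. A peak 58123 bp downstream, in the same intron, had 35.8, with 20.5 in replicate 1 and 17.9 in replicate 2. Both intronic peaks were found in both replicates. The summit of the stronger one also lay 33 bp from a TSS of the antisense noncoding gene D830005E20Rik, and that of the weaker one 2266 bp from it. The window of the stronger one carries 1 TEAD match and has 39.5% G and C. The peak at a Trdn promoter, 82 bp from a TSS, was weak at 20.8, with 13.1 in replicate 1 and 4.09 in replicate 2, and a peak in intron 1 had 12 and no counterpart in replicate 2. In each library taken alone Trdn had 2 leading peaks.

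By count, Casq2 had the fewest peaks of the release unit. Per 100 kb of territory it did not stand apart, with 1.27, against 1.29 for Trdn and 1.80 for Ryr2. The single optimal peak of Casq2 lay in intergenic DNA 16820 bp upstream, with a signal value of 23.3 (rank 12702). Replicate 1 had 18.0 at this place, and replicate 2 had no summit near it. The strongest Casq2 peak of the pooled list was another, 13451 bp downstream of a TSS, with 25.5; it stands in the conservative list, which holds 2 Casq2 peaks. Near the same place replicate 1 had 21.1 (rank 7139) and replicate 2 had 9.28 (rank 23915). The leading peaks of replicate 1 held 3 Casq2 peaks and those of replicate 2 held 0.

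Jph2 had the densest cluster, 20.7 peaks per 100 kb of its territory of 48.4 kb. Its strongest peak stood at the promoter, on chromosome 2 from 163397861 to 163398356, 116 bp upstream of the TSS, with a signal value of 68.7, and had 47.9 in replicate 1 and 25.4 in replicate 2. The window of this peak holds no match to any of the 15 motifs. Just upstream, at 1414 bp from the TSS, a peak had 63.5, with 37.5 in replicate 1 and 22.7 in replicate 2.

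A further group lay inside Jph2. Intron 3 held peaks of 68.5, 48.2 and 36.9 between 34515 and 38455 bp downstream of the TSS, and intron 2 held a peak of 50.7 at 5260 bp. The strongest of these had 43.9 in replicate 1 and 24.7 in replicate 2. All 4 were found in both replicates, and the windows of the 68.5 and 50.7 peaks are where Jph2 has matches to the MEF2 motif. The other 4 Jph2 calls ran from 11.5 to 29.7 and were not found in both replicates. Jph2 had more peaks found in both replicates, 6 of 10, than any other of the 10 genes.

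The uptake genes are Atp2a2, which encodes the SERCA2 pump, and Pln and Sln, which encode phospholamban and sarcolipin, small membrane proteins that slow the pump. Sarcolipin is found mainly in the atria of the mouse heart. The windows of the strongest Atp2a2 and Pln peaks are these, in the same form.
Atp2a2 chr5:122510891-122511090: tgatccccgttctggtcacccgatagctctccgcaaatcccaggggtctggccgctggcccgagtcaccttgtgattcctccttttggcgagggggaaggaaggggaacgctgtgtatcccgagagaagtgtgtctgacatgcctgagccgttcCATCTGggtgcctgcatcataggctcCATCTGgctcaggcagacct
Pln chr10:53324776-53324975: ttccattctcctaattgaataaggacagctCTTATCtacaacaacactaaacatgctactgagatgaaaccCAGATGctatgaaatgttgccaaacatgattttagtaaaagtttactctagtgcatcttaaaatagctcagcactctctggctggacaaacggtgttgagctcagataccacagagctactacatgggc

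Pln had the second strongest peak of the 10 genes. It lay on chromosome 10 from 53324755 to 53324977, 12791 bp upstream of the Pln TSS and within intron 3 of Cep85l, the gene that encloses Pln. Its signal value was 147 in the optimal list (rank 92), 80.7 in replicate 1 (rank 109) and 74.2 in replicate 2 (rank 68). It was among the strongest peaks of each library. The window carries a GATA match and a HAND E-box match and has 40.0% G and C.

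Between this peak and Pln stood calls of 38.2, 66.8 and 50.3, at 8204, 4717 and 2215 bp upstream. The middle of these had 36.3 in replicate 1 and 34.8 in replicate 2, and the nearest had 22.5 in replicate 1 and 25.5 in replicate 2. Both were found in both replicates, and each window holds TEAD and GATA matches. The Pln promoter peak, 19 bp downstream of a TSS, had 35.1, with 15.9 in replicate 1 and 18.6 in replicate 2, and its replicate 2 summit lay 105 bp away. Calls of 24.8 and 25.5 lay in Pln intron 1, and calls of 30.1 and 10.5 lay 31568 and 31367 bp upstream in Cep85l intron 5. The 6 distal peaks upstream of Pln all lie in introns of Cep85l, so the distance rule and the enclosing gene give different names for them.

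Atp2a2 had 8 peaks and none of them at its promoter. The strongest, on chromosome 5 from 122510743 to 122511238, lay 8766 bp upstream of the TSS in intergenic DNA, with a signal value of 84.5 (rank 703). It had 44.2 in replicate 1 and 43.8 in replicate 2, and its window holds 2 matches to the HAND E-box. Farther upstream, a peak at 25056 bp had 63.9, with 34.1 in replicate 1 and 21.9 in replicate 2, and a peak at 18911 bp had 57.7, with 34.7 in replicate 1 and 33.6 in replicate 2. The replicate 2 summit of the 18911 bp peak lay 166 bp from the optimal one, so it did not count as found in both by the 100 bp rule although both values were high.

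Within 1 kb of an Atp2a2 TSS the strongest call of the pooled list had 16.1 (rank 28564). In replicate 1 the strongest such call, 57 bp from a TSS, had 17.7 (rank 10240) and was among the leading peaks of that library. In replicate 2 the strongest lay elsewhere, 867 bp from a TSS, with 6.73 (rank 63566). Calls of 17.1 and 13.7 lay in Atp2a2 intron 3. The 6 peaks of the upstream region therefore held all the high values of this gene. When every annotated TSS was counted, none of the 8 peaks stayed with Atp2a2.

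Sln had no peak in the optimal or the conservative list. The strongest pooled call nearest to its TSS had 12.3 (rank 52395), 7935 bp downstream. In replicate 2 a call at 7886 bp had 11.8 and ranked 13884, which placed it among the leading peaks of that library. In replicate 1 the strongest call had 6.73 (rank 89192) and lay elsewhere, 30345 bp upstream. Fewer atrial cells and weaker binding per cell cannot be told apart in whole heart.

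The surface genes bring calcium in and take it out. Cacna1c encodes the pore of the cardiac L-type calcium channel, Cacnb2 encodes a beta subunit that carries the channel to the membrane, and Slc8a1 encodes the sodium-calcium exchanger NCX1. Their strongest peaks all lay within 1 kb of a TSS, and these are the windows.
Cacna1c chr6:119196518-119196717: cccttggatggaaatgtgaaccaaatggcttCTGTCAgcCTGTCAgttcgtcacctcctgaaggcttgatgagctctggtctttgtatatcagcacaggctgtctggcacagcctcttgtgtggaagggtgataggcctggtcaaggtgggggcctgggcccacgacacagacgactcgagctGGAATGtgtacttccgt
Cacnb2 chr2:14823120-14823319: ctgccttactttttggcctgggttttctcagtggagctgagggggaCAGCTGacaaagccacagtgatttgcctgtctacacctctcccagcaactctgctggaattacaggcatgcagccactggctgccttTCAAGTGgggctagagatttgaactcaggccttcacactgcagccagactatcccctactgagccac
Slc8a1 chr17:81738381-81738580: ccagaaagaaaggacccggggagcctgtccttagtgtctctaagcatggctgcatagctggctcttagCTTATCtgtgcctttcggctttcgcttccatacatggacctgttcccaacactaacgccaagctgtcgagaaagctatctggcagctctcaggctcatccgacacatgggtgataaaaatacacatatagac

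Cacna1c had its strongest peak at the promoter. On chromosome 6 from 119196534 to 119196707, 200 bp upstream of the TSS and inside intron 3 of the overlapping gene Dcp1b, it had a signal value of 119 (rank 204). It had 54.9 in replicate 1 (rank 474) and 55.6 in replicate 2 (rank 180), so the libraries gave nearly the same value. The window holds 2 MEIS matches and a TEAD match. A neighbouring call at 404 bp had 31.9.

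Intron 1 of Cacna1c held a peak of 97.1 (rank 420), 31158 bp upstream of an internal TSS, with 63.1 in replicate 1 and 34.7 in replicate 2. A second intron 1 peak, 2464 bp downstream of the TSS, had 77.8, with 48.2 in replicate 1 and 38.2 in replicate 2. A peak in intron 3 had 40.2, with 22.0 in replicate 1 and 21.7 in replicate 2. All of these were found in both replicates. Cacna1c had the highest median signal value of the genes with more than 1 peak, 59.0 over its 6 peaks.

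Cacnb2 had as many peaks as Jph2, but most were weak. Its strongest, on chromosome 2 from 14822972 to 14823467 in intron 2 and 872 bp upstream of an internal TSS, had a signal value of 87.2 (rank 633), with 49.7 in replicate 1 and 41.7 in replicate 2. Intron 3 held peaks of 43.4 and 43.0, with 24.0 and 18.7 in replicate 1 and 18.2 and 27.6 in replicate 2. These 3 were the Cacnb2 peaks found in both replicates. A peak in exon 1, 40 bp downstream of a TSS, had 28.7, with 11.8 in replicate 1 and 11.3 in replicate 2. The median over the 10 peaks was 24.3. A call of 19.3, 10841 bp downstream of an internal TSS, was the only 1 of the 60 with no summit near it in either replicate list. Alone, replicate 1 gave 5 Cacnb2 peaks and replicate 2 gave 11.

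Slc8a1 had its strongest peak at the most upstream promoter of the gene, on chromosome 17 from 81738410 to 81738555 and 104 bp upstream of the TSS. Its signal value was 105 (rank 325), with 60.1 in replicate 1 and 40.0 in replicate 2, and a GATA match stands in its window. Calls of 28.3 and 16.5 lay in intron 1 within 1 kb of the same TSS. The other strong site lay 43314 bp upstream in intergenic DNA, with 71.0, and had 42.7 in replicate 1 and 23.3 in replicate 2. The promoter and the upstream site were found in both replicates. All 5 intervals also stand in the conservative list, and replicate 2 alone gave 8 Slc8a1 peaks, against 5 in replicate 1 alone.

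Further peaks lay inside these genes but nearest to the TSS of another. They were 16 in all: 5 in Slc8a1, in introns 2 and 8, nearest to Gm11096 (up to 36.4), 4 in Atp2a2 intron 20, nearest to Anapc7 (up to 34.9), 3 in Pln exon 2, nearest to Cep85l (up to 27.8), 3 in Cacna1c intron 1, nearest to Dcp1b (up to 37.0), and 1 in Jph2 intron 3, nearest to Tox2 (40.0). Counting peaks inside the gene bodies instead of by the nearest TSS gave 48 peaks in 8 genes, without Casq2. At the edge of the distance rule, the farthest assigned peaks were that of Ryr2 at 69999 bp and that of Trdn at 60483 bp. The nearest beyond 100 kb was a Slc8a1 call of 27.3 at 105633 bp. For Pln, calls of 27.1, 25.8 and 98.3 stood between 158460 and 161503 bp from its TSS. The last of these ranked 397 and would be the second strongest Pln peak at a limit of 200 kb.

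Most peaks of the 10 genes lay away from protein-coding promoters. Within 1 kb of a TSS stood 13 of the 60 peaks, or 21.7% (95% exact interval 12.1% to 34.2%), against 33.5% of all optimal peaks. Intervals on shares of the 60 peaks treat neighbouring calls of 1 joined site as independent. In single libraries the share was 13.1% of 61 leading peaks in replicate 1, against 34.5% of all its leading peaks, and 12.5% of 72 in replicate 2, against 28.7%. Of the 47 distal peaks, 25 lay in an intron of the gene they were assigned to, 16 were intergenic, 6 lay in Cep85l and 0 lay in an exon of their gene. Distal refers to protein-coding TSSs only, and the strongest Trdn peak, counted as distal, lay 33 bp from a noncoding one. Relative to the nearest TSS, 36 of the 60 stood upstream and 24 downstream. That TSS can be an internal one, so some upstream peaks, as in Cacnb2 and Cacna1c, lie inside their own gene. The median distance from the TSS was 8062.5 bp, against 5252 bp for the 15570 optimal peaks within 100 kb of any protein-coding TSS, and among those the promoter-proximal share was 37.3%.

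The promoter-proximal windows of these genes were poor in CpG. The median was 4 CpG in 200 bp for the 13 windows, against 15 for all 5810 promoter-proximal windows, and at most 4 CpG were held by 8 of the 13, against 13.3% of all. Some of the 13 windows belong to the same joined site. The summits of the 13 lay 19 to 885 bp from a TSS, which can be an internal one. All promoter-proximal windows were not matched to these for that distance. The promoter peaks of Ryr2, with 16 CpG, and of Cacnb2 at 40 bp from the TSS, with 20, held the most, and both had low signal values of 25.8 and 28.7. Median G and C content was 50% in the 13 windows, against 62% in all promoter-proximal windows. In the 47 distal windows it was 45.5%, against 50.5% in all distal windows.

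The replicates found these peaks about as often as other peaks. A leading summit of both replicates lay within 100 bp of 28 of the 60 peaks, or 46.7% (95% exact interval 33.7% to 60.0%), against 40.9% of all optimal peaks. With a limit of 50 bp the share was 33.3%, against 29.8% of all, with a limit of a call's radius 65.0%, against 53.8%, and in the full replicate lists within 100 bp 68.3%, against 67.3%. Replicate 1 alone had 39 of the 60, or 65.0%, against 65.3%, and replicate 2 had 34, or 56.7%, against 55.8%. The conservative list held the intervals of 39 of the 60, against 67.5% of all, and a −log10 q of at least 2 was reached by 37 of the 60, against 57.7% of all. For the strongest summit of each joined site, 28 of 44, or 63.6%, were found in both, against 48.7% of all sites. All 10 peaks of rank 1000 or better were among the 28.

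When each peak was matched to the nearest summit of each full replicate list, no farther off than the edge of a call from its centre, 55 of the 60 peaks had a match in both, although a weak call can then borrow the summit of a strong neighbour. The signal value was higher in replicate 1 for 42 of the 55, with a median ratio of 1.33 of replicate 1 to replicate 2, against 1.31 for all 15076 optimal peaks matched in both. Over the 41 joined sites matched in both, Pearson's r between the libraries' values was 0.879 and Spearman's rho was 0.795, a description only, since all points come from the same 2 libraries. The median rank of the matched summits was 6959.5 in replicate 1, against 9187 for all optimal peaks, and 4312.5 in replicate 2, against 9031. In the optimal list itself it was 7480 for the 60 peaks, against 8684, and with 1 value per joined site 4271, against 7285.5 for all joined sites.

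**Figure D3:**
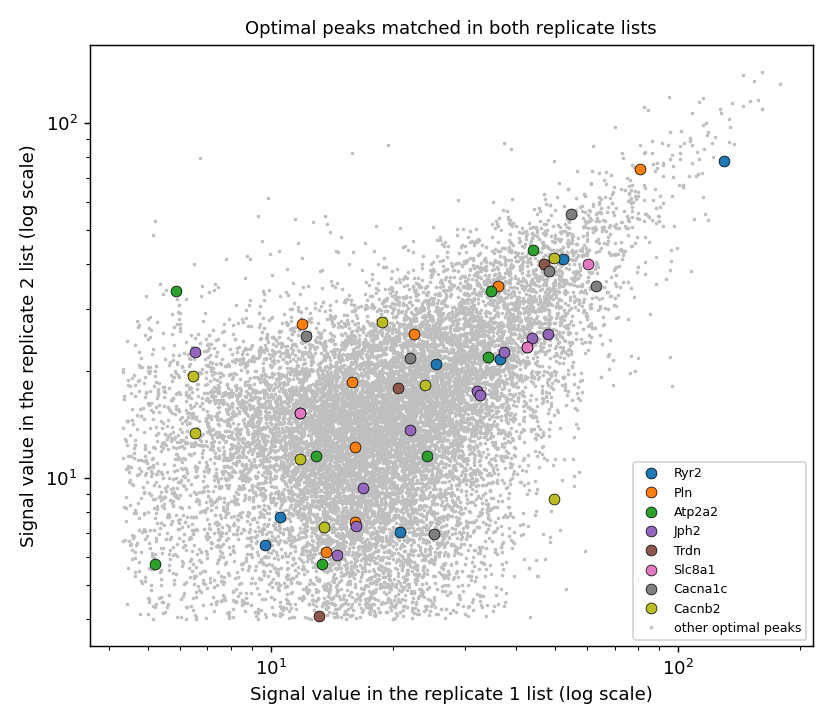
Signal value in the list of replicate 2 (vertical axis, log scale) against that in the list of replicate 1 (horizontal axis, log scale) for the optimal peaks matched to a summit of both lists. Coloured points are the 55 matched peaks of 8 genes (Casq2 and Sln have none) and grey points are other optimal peaks; the strongest Ryr2 and Pln peaks stand at the upper right in both libraries.

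The windows at the summits were searched on both strands for 15 consensus motifs of factors known in the heart or recruited with EP300. Their letters are given with their results below, except MEF2, CArG, the glucocorticoid receptor and the DR4 element of the thyroid hormone receptor, which are given by name. Some can overlap, and a match is a description of letters and not a bound site. The strongest summit of each joined site was used, which leaves 35 distal sites of these genes and 9634 distal sites in all.

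TEAD (GGAATG), the motif of the factors that end the Hippo growth pathway, was matched at 14 of the 35 sites, in 7 genes, or 40.0% (95% exact interval 23.9% to 57.9%), against 18.5% of all distal sites. The GATA motif (GATAAG) of the GATA4 factor and its relatives in heart muscle was matched at 11 of the 35, in 6 genes, or 31.4% (16.9% to 49.3%), against 14.9%. For both, the share over all distal sites lay below the interval of these genes' sites, but the intervals treat sites of 1 gene as independent and no test was made. All distal sites were not matched to these for G and C content or signal value, and 15 motifs were searched. NKX2 (CACTTNA) was matched at 6 sites (17.1%, against 12%), MEIS (TGACAG) at 7 (20%, against 22.4%), the class A E-box (CAGCTG) at 7 (20%, against 21.9%) and the HAND E-box (CAGATG) at 5 (14.3%, against 17.6%).

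MEF2, bound by factors that act on muscle genes, was matched at 2 sites (5.71%, against 7.92%), both in Jph2. T-box (AGGTGTNA) and AP-1 (TGANTCA) were matched at 2 sites each (5.71%, against 2.73% and 9.75%), and ERR (TCAAGGTCA) at 1, the Slc8a1 site 43314 bp upstream (2.86%, against 0.768%). ETS (CAGGAAGT) was matched at 0 of 35, which allows a share of up to 10% by the exact interval, against 5.78% of all. CArG, CREB (TGACGTCA), DR4 and glucocorticoid receptor motifs were also at 0, against 1.74%, 0.675%, 0.0415% and 2.18%. At 35 sites these shares cannot be told from those of all sites. In the 47 distal calls without joining, TEAD was matched at 17 (36.2%, against 17.8%) and GATA at 12 (25.5%, against 13.9%). At least 1 of the 15 motifs was matched in 36 of the 47, or 76.6%, against 75.6% of all distal windows.

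**Figure D4:**
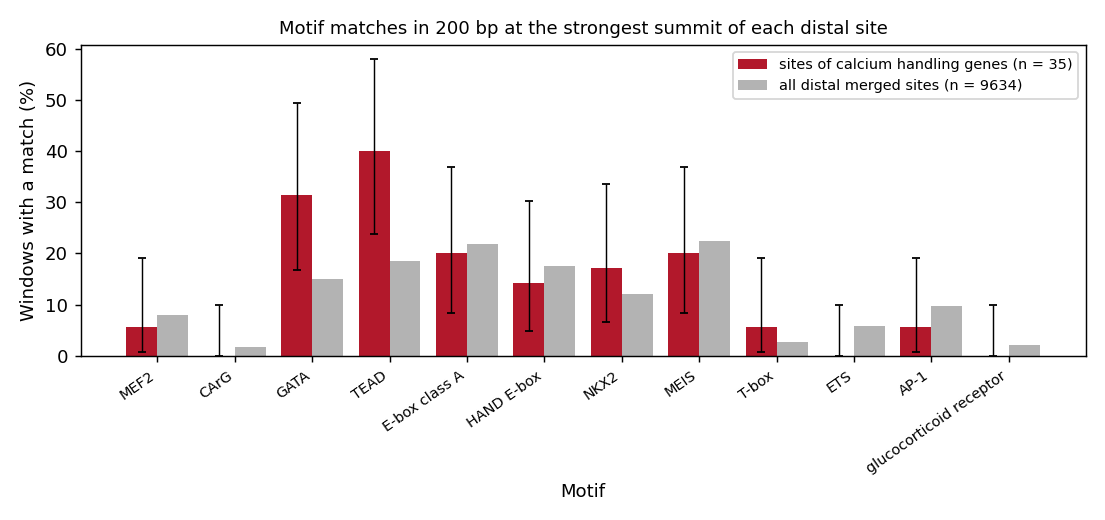
Share of 200 bp windows with a motif match at the strongest summit of each joined distal site, for the 35 sites of the calcium handling genes (red, with 95% exact intervals as error bars) and all 9634 distal sites (grey). Motifs matched in fewer than 100 of all sites are left out; the red bars of TEAD (40.0%) and GATA (31.4%) stand above the grey ones (18.5% and 14.9%), and the other intervals include the share over all sites.

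Beyond the 10 genes, a list of 54 other genes of calcium handling was examined, of which 53 matched the annotation (Strit1 did not). An assigned peak was held by 28 of the 53, or 52.8% (95% exact interval 38.6% to 66.7%, counting error only), against 31.8% of all protein-coding genes. The list was chosen with earlier results of these data known, and no test was made. This share was not adjusted for the territory of the genes. Among signalling proteins, kinases and scaffolds 9 of 10 genes had a peak, among pump regulators and buffers 5 of 10, among release and junction genes 7 of 16, among surface channels and subunits 4 of 12, and among surface extrusion genes 3 of 5. Camk2d, the main heart isoform of the calcium and calmodulin dependent kinase that acts on phospholamban and the ryanodine receptor, had 8 peaks, up to a signal value of 96.7, 56404 bp upstream. Ahnak, a large protein that binds the calcium channel's beta subunit, had 7 peaks (up to 96.7).

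Of the release and junction genes, Asph, whose locus also encodes the junctional protein junctin, had 6 peaks (up to 75.5). Its strongest stood 77 bp upstream of a TSS. Itpr1 and Itpr2, which encode receptors for inositol trisphosphate, had 5 (up to 74.1) and 4 (up to 32.6), and Speg, a muscle kinase, had 4 (up to 44.3). Srl, which encodes the luminal protein sarcalumenin, had 6 (up to 49.3). Pde4d, a phosphodiesterase, had 5 (up to 49.9), and Akap6, Cacnb4 and Camk2g had 4 each, up to 43.2, 55.3 and 45.3. Per 100 kb of territory the named genes of this list ran from 0.357 at Pde4d to 10.8 at Ahnak. Pde4d alone lay below the 0.971 of all genes, and Itpr2 was near it at 0.998. Of the genes of this list named here with their peaks, all but Itpr2 had their strongest peak found in both replicates.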

How the data were processed

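The authors deposited 5 peak lists on mm10, per the file headers: 1 for each replicate, 1 for the pooled reads, and an optimal and a conservative list by irreproducible discovery rate (IDR). Per the file listings, replicate 1 and the pooled reads were called with 2 control alignment files and replicate 2 with 1. Which aligner, caller and IDR threshold were used is not given in the sources used here. The deposited values are a signal per peak, a −log10 q (from the caller's q-value) and, in both IDR lists, a score, the scaled IDR.

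TSSs were 54363 starts of protein-coding transcripts of GENCODE M21; peaks off the main chromosomes were left out. Peaks were promoter-proximal within 1 kb of a TSS and distal otherwise. Exons and introns are those of the gene's longest transcript. Replicate values are those of the nearest summit in that list no farther off than a call's edge from its centre. Territory is the DNA nearest to a gene's TSSs within 100 kb. Shares have exact Clopper-Pearson intervals at 95%. Depth is unknown, so no precision of single peaks is given, and no groups were compared.

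All 10 genes are named whatever their values. Of the other calcium genes the 12 with most peaks are named, except 1 that is not reported here, and of each marker list the gene with most peaks. The genes, lists and motifs were chosen with earlier results of these data known. Alternatives were other distances, TSS sets, peak lists, leading counts, windows, joined sites and each replicate alone. The scripts were tested on simulated data. Windows were read with pyfaidx 0.9.0.4, intervals came from SciPy 1.17.1 and figures from matplotlib 3.10.9, under Python 3.11.15 with pandas 2.3.3 and numpy 2.4.6.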

Additional observations from a re-analysis of the deposited data

How the results depend on the processing

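The number of genes with a peak stayed at 7 to 9 of 10 in all alternatives, and that of other calcium genes at 24 to 32. The 60 peaks became 36 with TSSs of all transcripts and 37 with a −log10 q of at least 2. Single replicates gave 61 to 72 peaks, 9 genes each, 27 to 32 other calcium genes and promoter shares of 12.5% to 13.1%. The median ranks, 6959.5 in replicate 1 and 4312.5 in replicate 2, are of summits matched to 58 and 56 of the 60 optimal peaks. With joined sites the median rank was 4271 instead of 7480, against 7285.5 for all joined sites. The share found in both replicates, 46.7%, was 33.3% within 50 bp, 65.0% within the radius of a call and 68.3% in the full lists. Windows of these genes with a motif fell to 45.0% at 100 bp, against 73.3% at 200 bp. At 200 bp these were 76.6% of distal and 61.5% of promoter-proximal windows, against 75.6% and 46.7% over all peaks. The share over all peaks at 100 bp is not given here. The causes of these shifts were not tested, except that shorter windows and stricter distances keep fewer matches by construction. Counts of single genes moved by over 1.5 times most often for Casq2 and Trdn, under 7 alternatives each. No paired analysis was possible because there is only 1 group. With 2 libraries no sample could be examined as an outlier, and with an unknown depth an absent peak, as at Sln, may be one too weak to call.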
